A study of Mus musculus with 30 samples.

Results

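The genes described here encode enzymes and regulators of cholesterol and fatty acid synthesis. They were chosen by symbol from what their products do, as 30 genes among the 50764 gene models counted, and all 30 passed the low count filter in every fit. They comprise 8 genes from acetoacetyl-CoA thiolase to squalene synthase, 10 genes from squalene to cholesterol, 4 genes of sterol regulation and transport, 3 genes of fatty acid synthesis and 5 genes of desaturation and elongation. PolyA RNA was sequenced from mouse macrophages and from PDPN+ cells (podoplanin positive, labelled om_pdpn), in 30 libraries that form 10 groups of 3. The series title links macrophages to vitamin A, whose metabolite all-trans retinoic acid (ATRA) activates the retinoic acid receptors. Macrophages were taken ex vivo, labelled as a lavage, or came from culture alone, with 1 uM ATRA, in direct co-culture with PDPN+ cells (co), across a transwell membrane from them (tw), or with 1 uM BMS493, which acts on the retinoic acid receptors as an inverse agonist. PDPN+ cells were cultured alone, in co-culture, in transwell culture or with 1 uM BMS493. No transgene, strain, age or sex is given in the sources used here, and neither is the time in culture. In vitro samples were sorted on F4/80 or PDPN into lysis buffer. Whether the cells with BMS493 were cultured together or apart is not stated, and neither is whether replicates came from different mice or cultures. The p values therefore rest on the spread between the libraries alone.

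Libraries held 29350158 to 54099085 counts from 2148 to 25000 cells. The summed level of 14 macrophage markers averaged 101000 to 181800 CPM (counts scaled to a common library total) in the macrophage groups and 110.6 CPM in PDPN+ cells cultured alone. It averaged 2215 CPM in PDPN+ cells from co-culture, 2804 CPM with BMS493 and 308.9 CPM in transwell culture (689.8 CPM in replicate 1). The part of macrophage RNA in the PDPN+ results was not tested. The summed level of 14 fibroblast markers averaged 24160 CPM in PDPN+ cells cultured alone, 51.5 CPM in macrophages cultured alone, 858.8 CPM in macrophages from co-culture and 1115 CPM in macrophages with BMS493. By batch, the co-culture sums were 3.26%, 1.29% and 1.67% of those in the partner PDPN+ libraries. Each replicate number is 1 batch of the labels (mbb336, mbb339 and mbb340 for replicates 1 to 3), and batch mbb340 stood apart in several results below. Adjusted p values are from the edgeR quasi-likelihood test over all genes tested, with a threshold of 0.05, and a gene that passed it is said to be called. Levels are CPM, and differences are log2 fold changes with their standard error (SE).

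Cholesterol is built from acetyl-CoA. Acat2 and Hmgcs1 make the precursor of mevalonate, Mvk, Pmvk, Mvd and Idi1 turn mevalonate into isoprenoid units, and Fdps and Fdft1 join these into squalene. Sqle and Lss then form lanosterol, which Cyp51, Tm7sf2, Msmo1, Nsdhl, Hsd17b7, Ebp, Sc5d and Dhcr7 convert towards cholesterol. Most of these genes are known targets of the transcription factor SREBP2 (Srebf2), which is released from the endoplasmic reticulum when sterols are low and held back by Insig1. Its relative SREBP1 (Srebf1) acts more on fatty acid genes. Acly makes cytosolic acetyl-CoA from citrate, Acaca makes malonyl-CoA, Fasn builds palmitate, Elovl6 elongates it, and the Scd and Fads enzymes add double bonds. Macrophages take up much of their cholesterol from outside, and the liver X receptors (LXR) drive its efflux.

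Promoter sequences from RefSeq (build GRCm38.p6) were matched by symbol for 23 of the 30 genes, in 28 windows of 300 bases. The letters TCACNCCAC, the core of the classic sterol regulatory element, were found on either strand in 1 of the 28 windows (3.57%), that of Hmgcs1, against 1.24% of all 32851 windows. CCAAT, the NF-Y box, was found in 20 of the 28 windows (71.4%) against 37.4% of all windows. GGGCGG, the GC box, was found in 21 (75.0%) against 35.7%. A CCAAT match can overlap one on the other strand. These are matches of letters only. The stretches shown belong to 4 genes that rose together in culture (Hmgcs1, Cyp51, Lss and Insig1) and to Acly and Sc5d, whose levels differed with ATRA or BMS493. Each ends before the first annotated exon and holds at most 250 bases. They are read 5′ to 3′ in the direction of the gene, with matches to these motifs in capitals. The positions are chr13:119690101-119690350 (plus strand) for Hmgcs1, chr5:4104747-4104947 (minus) for Cyp51, chr10:76531355-76531587 (plus) for Lss, chr5:28071162-28071362 (plus) for Insig1, chr11:100528001-100528250 (minus) for Acly and chr9:42264301-42264550 (minus) for Sc5d.
Hmgcs1: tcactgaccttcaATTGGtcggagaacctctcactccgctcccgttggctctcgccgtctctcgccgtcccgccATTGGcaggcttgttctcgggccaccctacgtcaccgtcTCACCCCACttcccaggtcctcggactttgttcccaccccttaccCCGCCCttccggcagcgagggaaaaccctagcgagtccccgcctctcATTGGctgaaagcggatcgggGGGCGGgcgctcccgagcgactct
Cyp51: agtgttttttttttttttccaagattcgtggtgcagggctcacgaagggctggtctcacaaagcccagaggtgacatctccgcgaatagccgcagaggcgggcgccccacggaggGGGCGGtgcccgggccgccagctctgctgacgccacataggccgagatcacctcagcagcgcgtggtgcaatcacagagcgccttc
Lss: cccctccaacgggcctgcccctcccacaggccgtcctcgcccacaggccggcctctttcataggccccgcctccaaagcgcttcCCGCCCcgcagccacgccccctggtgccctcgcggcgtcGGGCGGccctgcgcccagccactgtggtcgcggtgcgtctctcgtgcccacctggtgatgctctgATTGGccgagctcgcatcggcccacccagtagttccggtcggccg
Insig1: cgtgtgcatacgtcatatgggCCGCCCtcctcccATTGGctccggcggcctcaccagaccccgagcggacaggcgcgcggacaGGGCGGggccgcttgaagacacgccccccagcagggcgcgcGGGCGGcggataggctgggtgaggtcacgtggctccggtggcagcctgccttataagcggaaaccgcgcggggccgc
Acly: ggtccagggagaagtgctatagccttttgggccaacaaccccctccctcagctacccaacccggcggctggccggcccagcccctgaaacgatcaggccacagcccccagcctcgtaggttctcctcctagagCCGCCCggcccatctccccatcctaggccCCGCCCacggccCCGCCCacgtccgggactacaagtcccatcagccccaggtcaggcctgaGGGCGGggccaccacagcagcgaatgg
Sc5d: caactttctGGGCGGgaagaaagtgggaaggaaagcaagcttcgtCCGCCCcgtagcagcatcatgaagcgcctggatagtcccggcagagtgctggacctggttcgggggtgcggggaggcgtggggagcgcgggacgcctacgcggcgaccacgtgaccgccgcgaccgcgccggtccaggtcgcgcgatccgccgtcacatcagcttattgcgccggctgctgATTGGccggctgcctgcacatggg
Hmgcs1 carries the sterol element match together with 3 CCAAT and 2 GC box matches in the stretch shown. Acly shows 4 GC box matches, and the CCAAT matches of Acly and Cyp51 lie downstream of the stretches shown.

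**Figure D1:**
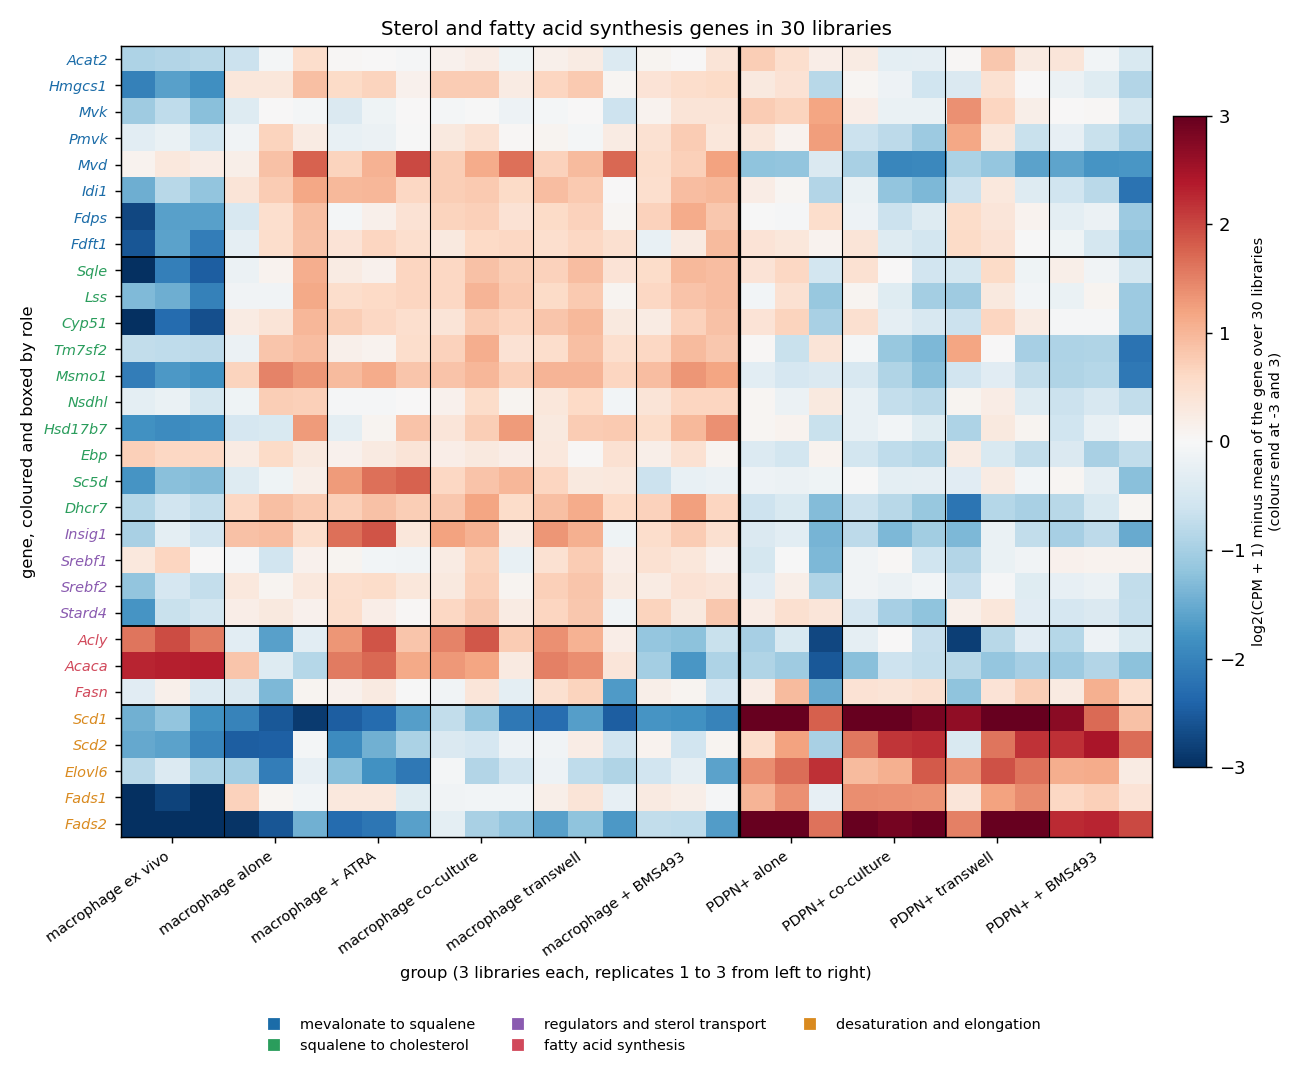
Level of each of the 30 genes in each of the 30 libraries, as log2(CPM + 1) minus the mean of that gene over all libraries (red higher, blue lower, colours end at -3 and 3). Rows are genes boxed by role and columns are libraries in groups of 3. Most sterol genes are blue ex vivo and red in cultured macrophages, Acly and Acaca follow another order of groups, and Scd1 and Fads2 are highest in PDPN+ cells.

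Genes of sterol synthesis were higher in macrophages cultured alone than ex vivo. Of the 30 genes, 21 rose and 2 fell, where 17.8% of all 17774 genes tested were called (9.31% higher and 8.5% lower). The median log2 fold change was 1.28 over the 30 genes and 0.08 over all genes tested. By role, 7 of 8 genes up to squalene rose (median 1.47), 9 of 10 from squalene to cholesterol (median 1.87) and 3 of 4 of regulation and transport (median 1.12). In fatty acid synthesis 2 of 3 genes fell (median -2.33). Of the desaturation and elongation genes 2 of 5 rose, Fads1 and Fads2 (median 0.49). Fads2 had no count ex vivo and passed the filter only through other groups, so its rise is not independent of that filter. The replicates of both groups did not overlap for 25 of the 30 genes, where they did not for 33.1% of all genes tested. Of the 23 calls, 18 held in every fit that left out 1 of the 6 libraries. The calls lost in some of these fits were Acat2, Nsdhl, Pmvk and Insig1, which held in 2 of the 6 each, and Stard4, which held in 4. In bulk samples, fewer cells of a type and less RNA per cell cannot be told apart.

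Cyp51, which removes a methyl group from lanosterol, lay at 10.3, 19.4 and 15.4 CPM ex vivo and at 120.1, 131 and 201 CPM in culture alone. Its log2 fold change was 3.32 (SE 0.284, adjusted p = 3.56e-06). Msmo1, the next demethylating step, lay at 34.2, 43.4 and 41.2 CPM ex vivo and at 233, 409.7 and 366 CPM alone. All 3 cultured libraries were several times higher for both genes (log2 fold change of Msmo1 3.08, SE 0.219, adjusted p = 1.02e-06). Sqle, squalene epoxidase and a control point of the pathway, lay at 3.64, 18.5 and 13.5 CPM ex vivo and at 69.7, 85.5 and 169.9 CPM alone. Its difference was 3.17 (SE 0.458, adjusted p = 0.000261). Batch mbb340 gave the highest cultured value of Cyp51 and Sqle, and no cultured library overlapped the ex vivo range.

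Among the early genes, Hmgcs1 lay at 23.4, 31.2 and 26.7 CPM ex vivo and at 124, 124 and 185 CPM in culture alone, a log2 fold change of 2.41 (SE 0.248, adjusted p = 1.67e-05). Idi1 lay at 30.4, 47.5 and 36.9 CPM ex vivo and at 111, 144.5 and 191 CPM alone (1.95, SE 0.267, adjusted p = 0.000172). Both genes were higher in each cultured library than in any ex vivo one. Fdft1, squalene synthase, differed by 2.56 (SE 0.334, adjusted p = 0.000118) and Fdps by 2.37 (SE 0.34, adjusted p = 0.000245). Mvd was the early gene that did not pass (0.89, adjusted p = 0.148), and it passed with batch as a block (adjusted p = 0.0227). Its levels were 26.6, 44.2 and 82.7 CPM alone against 25.1 to 29.3 CPM ex vivo. Ebp, an isomerase late in the pathway, was the gene after squalene that did not rise (-0.28, adjusted p = 0.214). Its ex vivo libraries (64.2 to 67.8 CPM) all lay above the cultured ones (49.3 to 62.2 CPM).

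**Figure D2:**
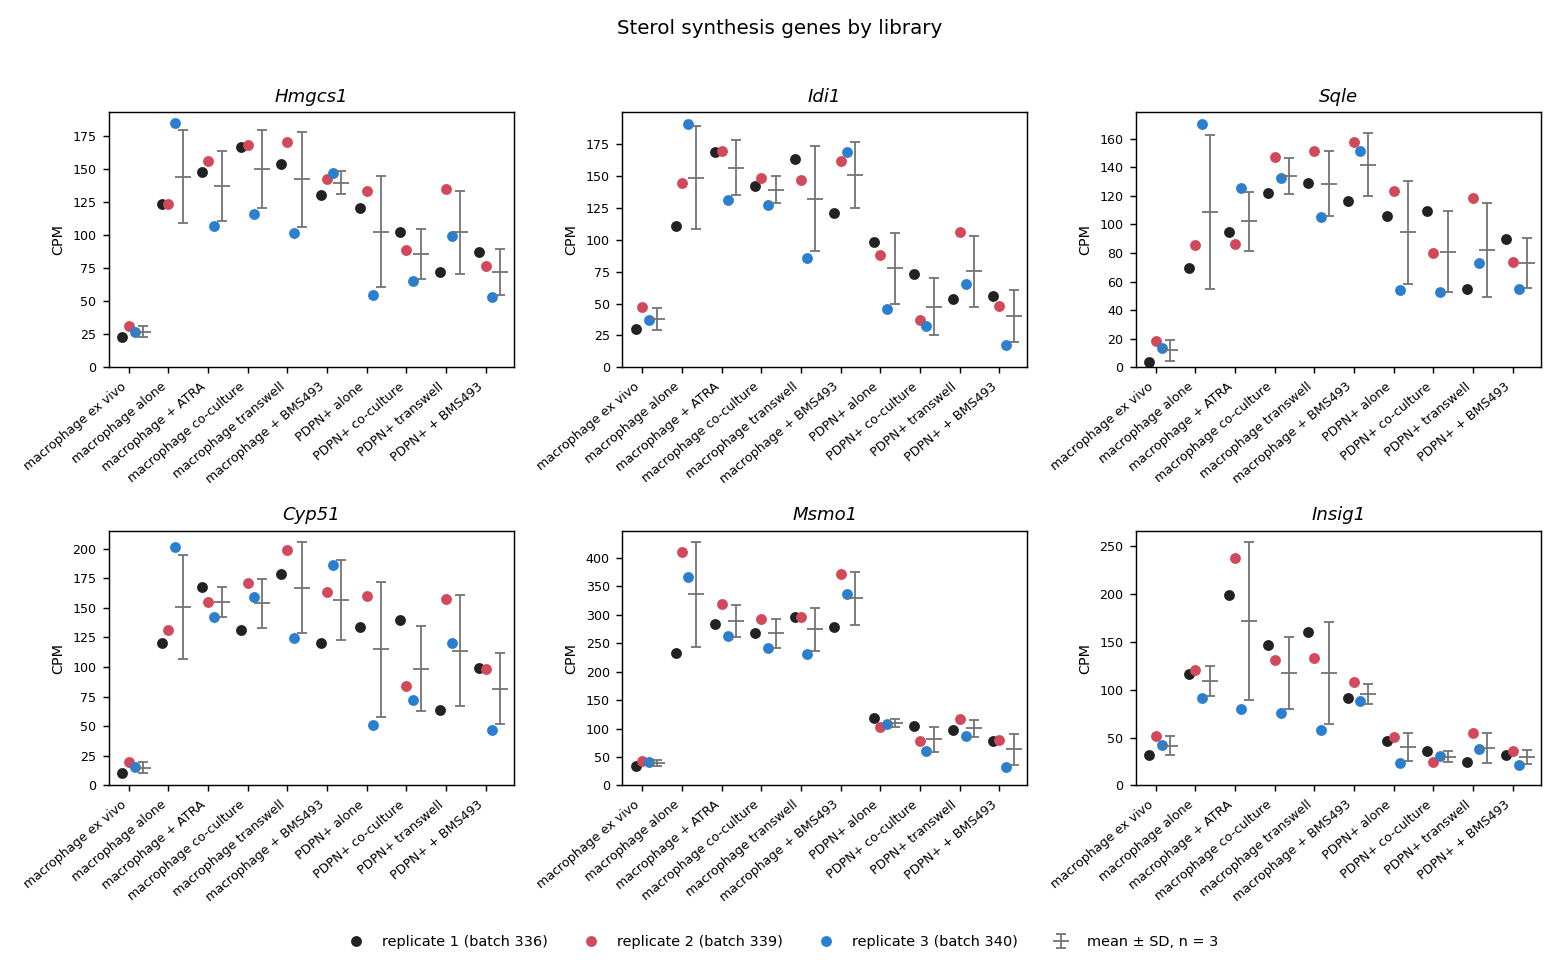
CPM of 6 sterol genes in each library (points, coloured by replicate number, which is the batch) with the mean ± SD of each group (n = 3, grey), by group on the horizontal axis. The ex vivo macrophages are the lowest of the macrophage groups in each panel, for example 15 ± 4.56 CPM of Cyp51 against 151 ± 44 CPM in culture alone.

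The regulators moved less. Insig1, which retains the SREBP complex, lay at 31.5, 51.1 and 42.3 CPM ex vivo and at 116, 121 and 91.5 CPM in culture alone (1.39, SE 0.411, adjusted p = 0.0283). That call was lost without replicate 1 or 2 of the cells alone or replicate 1 or 3 ex vivo (adjusted p up to 0.11). Srebf2 lay at 23.6, 38.5 and 32.8 CPM ex vivo and at 68.1, 57.5 and 68.2 CPM alone (1.03, SE 0.209, adjusted p = 0.00332). Neither gene overlapped between the groups. Stard4, a sterol carrier, also rose (1.21, SE 0.334, adjusted p = 0.0204), a call lost without replicate 2 alone or replicate 1 ex vivo (adjusted p up to 0.0658). Srebf1 lay at 57.1, 71.9 and 45.7 CPM ex vivo and at 43.9, 29.9 and 49.5 CPM alone, and its ranges overlapped (-0.51, SE 0.248, adjusted p = 0.179).

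Fatty acid synthesis went the other way at its first steps. Acly lay at 1837, 2344 and 1765 CPM ex vivo and at 478, 194 and 481 CPM in culture alone (-2.37, SE 0.422, adjusted p = 0.00131). Acaca lay at 92.3, 95.4 and 96.1 CPM ex vivo and at 32.8, 13.6 and 9.6 CPM alone (-2.33, SE 0.457, adjusted p = 0.00258). Each cultured library was lower than each ex vivo one for both genes. Fasn lay at 47.8, 68.3 and 46.1 CPM ex vivo and at 44.9, 23.4 and 65.4 CPM alone, with no separation (-0.29, SE 0.47, adjusted p = 0.741). Per gene length, in the authors' normalised RPKM, Acly was the most abundant of the 30 genes ex vivo (mean level 435.6) and Msmo1 in culture alone (165.4, with Acly at 84).

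Fads1, the delta-5 desaturase of polyunsaturated fatty acids, lay at 0.696, 8.97 and 2.54 CPM ex vivo and at 109, 70.7 and 64.1 CPM in culture alone. That was the largest fold among the genes with counts in every ex vivo library (4.3, SE 0.634, adjusted p = 0.000311). Fads2, the delta-6 desaturase, had no count ex vivo and 0.0704, 0.402 and 2.06 CPM alone. Against a floor of 3 counts over the ex vivo group it was at least 31.6-fold higher, at a low level that rested mainly on batch mbb340. It passed the filter only through groups in which it was detected. Scd1, the stearoyl-CoA desaturase, was under 3 CPM in both groups (2, 2.6 and 1.33 CPM ex vivo, 1.02, 0.402 and 0.11 CPM alone, adjusted p = 0.0885). Scd2 lay at 32.7, 31.3 and 23.8 CPM ex vivo and at 16.4, 16.8 and 92.3 CPM alone. The batch mbb340 library was above the ex vivo range and the other 2 were below it (0.49, SE 0.505, adjusted p = 0.566).

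The other culture conditions gave similar counts against the same ex vivo libraries, which all 5 comparisons share. With ATRA, 19 of 30 genes rose and 0 were called lower by edgeR (14.9% of all genes called, 8.52% higher and 6.38% lower), with 2 lower at an unadjusted p under 0.05. In co-culture 19 rose and 2 fell (14.9% called, 9.47% higher and 5.45% lower). In transwell culture 19 rose and 0 were called lower (12.9% called, 7.61% higher and 5.33% lower), again with 2 lower at an unadjusted p under 0.05. With BMS493, 21 rose and 3 fell (21.3% called, 12.3% higher and 8.96% lower). Each of these counts of genes that rose includes Fads2, which had no count ex vivo. The medians over the 30 genes were 1.27, 1.5, 1.53 and 1.48, and those over all genes lay between -0.04 and 0.06. Cyp51 differed by 3.35, 3.31, 3.45 and 3.32 in these comparisons, Sqle by 3.09, 3.45, 3.41 and 3.51, and Hmgcs1 by 2.34, 2.43, 2.37 and 2.31. Over these 12 libraries Cyp51 ranged from 119.9 to 198.5 CPM, Sqle from 86.4 to 157 CPM and Fads1 from 52.2 to 89.5 CPM. Fads2 was at least 39.7-fold higher with ATRA, 145-fold in co-culture, 72.3-fold in transwell culture and 118-fold with BMS493. Its levels in co-culture were 5.75, 3.2 and 2.68 CPM, of which PDPN+ RNA at the fibroblast percentages given above would amount to 2.71, 0.767 and 1.07 CPM. With BMS493 they were 3.99, 3.87 and 1.6 CPM, and that amount, taken the same way, would be 1.05, 1.25 and 1.08 CPM. The part of PDPN+ RNA in these values was not tested.

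The genes that fell came from fatty acid synthesis, with Ebp beside them. Acly was called with BMS493 (-2.79, SE 0.429, adjusted p = 0.00037). Its differences from ex vivo with ATRA (-0.32, adjusted p = 0.68), in co-culture (-0.34, adjusted p = 0.633) and in transwell culture (-0.79, adjusted p = 0.223) were not. Acaca was called with BMS493 (-3.73, SE 0.486, adjusted p = 9.86e-05) and in co-culture (-1.4, SE 0.443, adjusted p = 0.0458). Ebp was called with BMS493 (-0.48, SE 0.146, adjusted p = 0.0302) and in co-culture (-0.47, SE 0.146, adjusted p = 0.044). Both co-culture calls were lost whichever of the 6 libraries was left out. Scd2 rose with BMS493 (1.57, SE 0.515, adjusted p = 0.0417), to 104, 63.9 and 102 CPM. PDPN+ RNA, at the fibroblast percentages of these libraries, would amount to 12.4, 17 and 10.5 CPM of Scd2, and that part was not tested. The calls of Scd2 and Ebp with BMS493 held in 1 of the 6 such fits each, the one without replicate 2 with BMS493 (adjusted p up to 0.131 and 0.111 in the others).

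Genes of neighbouring pathways, from lists that had been drawn up with earlier results known, were called in both directions, beside 9.31% of all genes higher and 8.5% lower in culture alone against ex vivo. Of 14 further genes of sterol synthesis, uptake and SREBP processing, 5 rose and 2 fell (median 0.61). Of 14 genes of LXR, efflux, storage and endosomal export, 7 rose and 1 fell (median 0.91). Lipa, the lysosomal acid lipase, rose from 299 ± 56.5 to 2159 ± 692 CPM (SD, n = 3), and Npc1, which exports cholesterol from lysosomes, from 20 ± 2.25 to 94.2 ± 32.2 CPM (log2 fold change 2.24, adjusted p = 6.9e-05). Abcg1, a sterol efflux transporter, fell from 30.5 ± 7.39 to 8.92 ± 1.8 CPM (-1.77, adjusted p = 0.00178). Of 20 genes that supply, elongate or activate fatty acids, 5 rose and 2 fell, and of 16 genes of fatty acid oxidation 3 rose and 2 fell. Mlxipl, which encodes the glucose-responsive factor ChREBP, fell from 161 ± 51.9 to 13.7 ± 10.7 CPM. The summed level of 11 cell cycle genes also differed, at 761.3, 2573 and 1260 CPM ex vivo against 194.3, 188.7 and 355.2 CPM alone, and its part in these results was not tested.

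With ATRA, 1 late gene of the sterol pathway was called in cultured macrophages, while the 30 genes as a set moved in different directions by batch, as given below. Sc5d, the lathosterol desaturase, lay at 85.9, 103.5 and 127 CPM in culture alone and at 273, 356 and 383 CPM with ATRA. Every ATRA library lay well above every untreated one (log2 fold change 1.67, SE 0.207, adjusted p = 0.00206). Of the 30 genes, Sc5d alone was called (0.326% of all genes called, 0.281% higher), 5 of 30 had an unadjusted p under 0.05 and the median was 0.02. The call held whichever 1 of the 6 libraries was left out, and was lost in a fit of only these 6 libraries (adjusted p = 0.199). Cyp51 differed by 0.04 (SE 0.259), Hmgcs1 by -0.07 (SE 0.235), Idi1 by 0.07 (SE 0.257), Sqle by -0.09 (SE 0.42) and Srebf2 by 0.22 (SE 0.207). Insig1 lay at 199, 238 and 79.5 CPM with ATRA, above the untreated range in 2 batches and below it in batch mbb340 (0.65, SE 0.405, adjusted p = 0.821).

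Acly was also higher with ATRA, at 1507, 2217 and 1072 CPM against 478, 194 and 481 CPM alone. The groups did not overlap, but the test missed the threshold (2.06, SE 0.417, adjusted p = 0.0559) and passed it with batch as a block (adjusted p = 0.042). Acaca lay at 55.4, 61.8 and 41.3 CPM with ATRA, again without overlap (1.49, SE 0.445, adjusted p = 0.261). Fasn, Srebf1 and the desaturation and elongation genes differed by -1.26 to 0.79 with adjusted p values of 0.756 or more. The share of genes with a higher level differed by batch. It was 24 of 30 genes in batch mbb336 and 21 in batch mbb339, with medians of 0.39 and 0.25, and 8 of 30 in batch mbb340, with a median of -0.28.

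**Figure D3:**
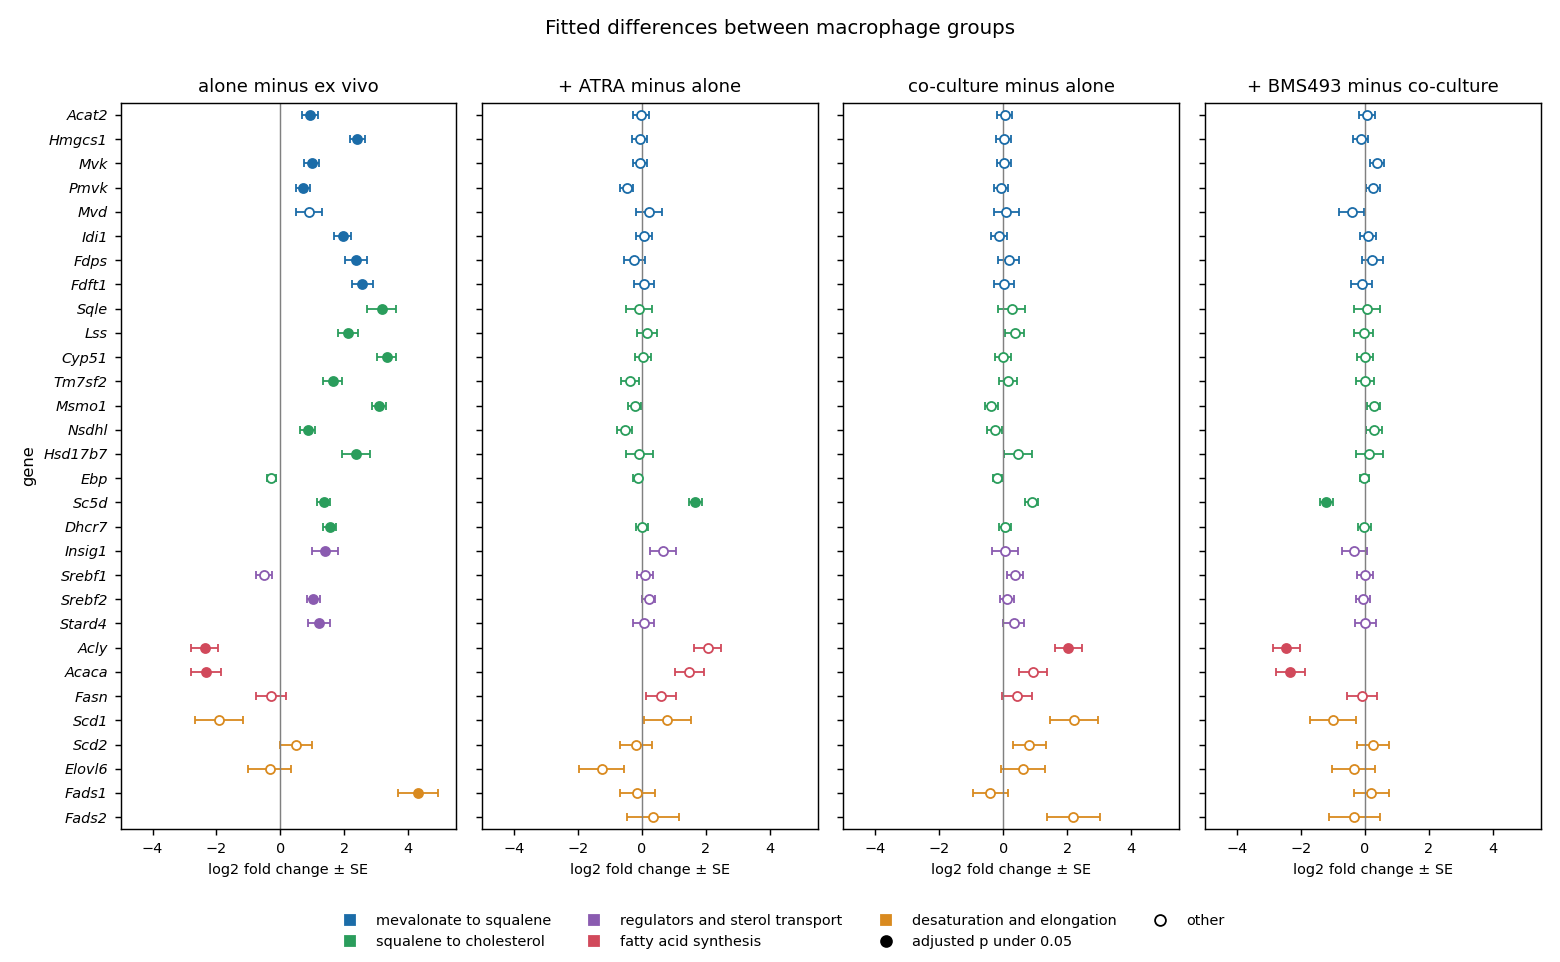
Log2 fold change (± SE) of each gene in 4 comparisons of macrophage groups, coloured by role, with filled points where the adjusted p was under 0.05. Fads2 is left out of the first panel because it had no count ex vivo. Most sterol genes lie to the right in the first panel and near 0 in the others, where the filled points are Sc5d, Acly and Acaca. In the co-culture panel Scd1 and Fads2 also lie to the right without being called.

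Acly was higher in macrophages from co-culture with PDPN+ cells than in macrophages cultured alone. In co-culture it lay at 1669, 2174 and 1016 CPM, against 478, 194 and 481 CPM alone (2.04, SE 0.417, adjusted p = 0.0352). It was the 1 gene of 30 called (0.698% of all genes, 0.63% higher), with 4 of 30 at an unadjusted p under 0.05, and the median was 0.13. The call held in 2 of the 6 fits that left out 1 library, and was lost without replicate 1 or 2 of either group. At the fibroblast percentages given above, PDPN+ RNA would amount to 16.3, 7.84 and 6.19 CPM of Acly. Sc5d lay at 174, 203 and 226 CPM in co-culture, above every library cultured alone (0.89, SE 0.203, adjusted p = 0.0595, and 0.0165 with batch as a block). Acaca lay at 46.2, 42.6 and 21.9 CPM (0.93, adjusted p = 0.392), with ranges that overlapped. DESeq2 called Acly, Sc5d and Scd1. Scd1 lay at 3.88, 2.68 and 0.833 CPM in co-culture and at 1.02, 0.402 and 0.11 CPM alone, with overlap. PDPN+ RNA at the same percentages would amount to 2.81, 1.25 and 0.967 CPM of Scd1, and its part was not tested. Fads2 lay at 5.75, 3.2 and 2.68 CPM against 0.0704, 0.402 and 2.06 CPM, without overlap, and was not called. For Fads2 the PDPN+ amount would be 2.71, 0.767 and 1.07 CPM, and whether the groups would stay apart without it was not tested.

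In transwell culture none of the 30 genes was called by edgeR (0.0281% of all genes). At an unadjusted p under 0.05 there were 5, all higher, and DESeq2 called Acly. Acly lay at 1554, 1240 and 684 CPM, above every library alone (1.58, SE 0.411, adjusted p = 0.252), and Sc5d at 178, 137 and 140.2 CPM (0.51, SE 0.202, adjusted p = 0.439). Srebf1 lay at 62.9, 77.2 and 52 CPM against 43.9, 29.9 and 49.5 CPM alone, without overlap (0.62, SE 0.248, adjusted p = 0.446). Between co-culture and transwell culture no gene of the 30 was called by edgeR (0.0394% of all genes), by DESeq2 or at an unadjusted p under 0.05. Acly differed by 0.46 (SE 0.402) and Cyp51 by -0.14 (SE 0.259) between them.

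The same split by batch appeared for both PDPN+ conditions, which share the libraries cultured alone with the ATRA comparison. Higher than alone were 27 and 24 of 30 genes in co-culture in batches mbb336 and mbb339, and 7 in batch mbb340. In transwell culture they were 28, 26 and 7. The medians were 0.46, 0.41 and -0.24 in co-culture and 0.57, 0.43 and -0.46 in transwell culture, while the medians of all genes lay between 0 and 0.04. The library alone in batch mbb340 had the highest summed level of genes up to squalene of the 3 (798.6 CPM, against 411.5 and 582.1 CPM). Without batch mbb340, 5 of 30 genes were called in co-culture (5.15% of all genes), 2 in transwell culture (1.79%) and 2 with ATRA (0.587%). Batch mbb340 also stood apart for Apoe, an LXR target that carries lipid, with 808 CPM alone against 43830 and 45580 CPM in the other 2 batches, and with 10850 CPM ex vivo. The part of this batch in the results was not tested further.

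Macrophages with BMS493 had less Acly, Acaca and Sc5d than macrophages from co-culture. These were the 3 genes of 30 that were called, all lower (0.85% of all genes, 0.726% lower), and the median over the 30 was 0. Acly lay at 267, 254 and 376 CPM with BMS493 and at 1669, 2174 and 1016 CPM in co-culture (-2.45, SE 0.423, adjusted p = 0.0129). Acaca lay at 8.49, 4.71 and 9.03 CPM against 46.2, 42.6 and 21.9 CPM (-2.33, SE 0.459, adjusted p = 0.0265). Sc5d lay at 71, 95.8 and 99 CPM against 174, 203 and 226 CPM (-1.2, SE 0.205, adjusted p = 0.0126). The groups did not overlap for any of these genes. Of the 6 fits that left out 1 library, the calls of Acly and Sc5d held in 3 and that of Acaca in 1. None of the 3 calls held without replicate 1 or 2 with BMS493 or replicate 2 of the co-culture. The sterol genes named above differed little, with Cyp51 at 0.01 (SE 0.259), Hmgcs1 at -0.12 (SE 0.235) and Sqle at 0.07 (SE 0.42).

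Acly with BMS493 lay within the range of macrophages cultured alone (194 to 481 CPM), and Acaca was below each of those libraries (9.6 to 32.8 CPM). These 2 groups were not tested against each other. The fibroblast sums by batch in macrophages with BMS493 were 2.79%, 3.18% and 3.42% of the PDPN+ libraries with BMS493. In transwell culture they were 0.23%, 0.121% and 0.54%. Among the 64 genes of the neighbouring pathways 3 were called, beside 0.85% of all genes. Mlxipl lay at 50.4 ± 15.2 CPM in co-culture and 1.97 ± 1.36 CPM with BMS493 (-4.69, adjusted p = 0.0044). Idh1, which makes cytosolic NADPH, lay at 1665 ± 119 and 596 ± 95 CPM (-1.5, adjusted p = 0.00388), and Abcg1 was higher (4.49 ± 1.36 and 16.1 ± 5.23 CPM, 1.83, adjusted p = 0.0161). With ATRA Mlxipl lay at 67.9, 68.2 and 38.5 CPM against 25.2, 11.7 and 4.12 CPM alone, without overlap. None of the 64 genes was called by edgeR with ATRA, in co-culture or in transwell culture against culture alone, where 5, 6 and 10 had an unadjusted p under 0.05 and DESeq2 called 1, 0 and 1. With batch as a block Mlxipl passed in all 3 of these comparisons (adjusted p = 0.0159 with ATRA, 0.0143 in co-culture and 0.0395 in transwell culture).

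**Figure D4:**
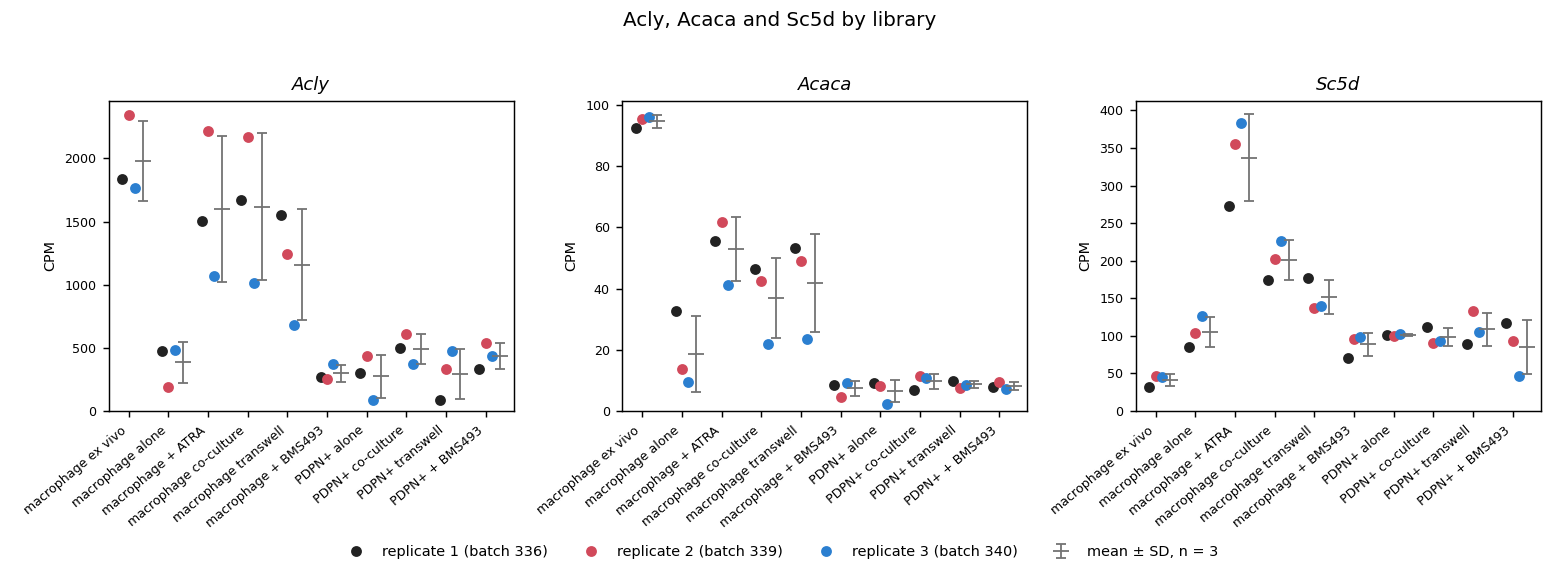
CPM of Acly, Acaca and Sc5d in each library (points, coloured by replicate number) with the mean ± SD of each group (n = 3, grey). Acly is high ex vivo, with ATRA, in co-culture and in transwell culture and low in culture alone and with BMS493, while Sc5d is highest with ATRA (337 ± 57.4 CPM).

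PDPN+ cells cultured alone had much more Scd1, Fads2 and Elovl6 than macrophages cultured alone. Of the 30 genes 5 were higher and 6 lower in PDPN+ cells, or 11 in all, where 38.9% of all 20987 genes were called (22.3% higher and 16.6% lower), so the count lies near the background. By role, 4 of 5 desaturation and elongation genes were higher (median 3.2), and 3 of 10 genes from squalene to cholesterol were lower (median -0.54). Scd1 lay at 79, 104 and 27.1 CPM in PDPN+ cells and at 1.02, 0.402 and 0.11 CPM in macrophages (7.1, SE 0.827, adjusted p = 4.12e-07). Fads2 lay at 80.9, 97.3 and 24.6 CPM against 0.0704, 0.402 and 2.06 CPM (6.34, SE 0.844, adjusted p = 4.28e-06). Elovl6 lay at 15.3, 18.9 and 27.5 CPM against 2.08, 0.469 and 4.23 CPM (3.2, SE 0.626, adjusted p = 0.000284). Each PDPN+ library was above each macrophage library for these 3 genes. Scd2 was called (1.72, SE 0.605, adjusted p = 0.0276), but its ranges overlapped and the call held in 2 of the 6 fits that left out 1 library, those without replicate 3 of either cell type. It lay at 139.5, 224 and 48.6 CPM against 16.4, 16.8 and 92.3 CPM, with log2 ratios by batch of 3.05, 3.7 and -0.92. Fads1, at 138, 177 and 57.5 CPM in PDPN+ cells, overlapped with the macrophages (0.61, SE 0.507, adjusted p = 0.357).

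The lower genes in PDPN+ cells were Mvd, Msmo1, Dhcr7, Acaca, Insig1 and Ebp. Mvd lay at 9.59, 9.78 and 16.9 CPM against 26.6, 44.2 and 82.7 CPM (-2.08, SE 0.422, adjusted p = 0.000403). Msmo1 lay at 118, 103 and 107 CPM against 233, 409.7 and 366 CPM (-1.62, SE 0.279, adjusted p = 6.92e-05). Dhcr7, the reductase mutated in Smith-Lemli-Opitz syndrome, lay at 16.8, 19 and 10.2 CPM against 41.1, 50.6 and 46.2 CPM (-1.58, SE 0.319, adjusted p = 0.000383). Acaca lay at 9.18, 8.07 and 2.27 CPM against 32.8, 13.6 and 9.6 CPM (-1.52, SE 0.451, adjusted p = 0.00973), a call lost without replicate 1 of the macrophages (adjusted p = 0.159) or replicate 3 of the PDPN+ cells. None of these 4 genes overlapped between the cell types. Mvk was the 1 early gene that was higher (1.08, SE 0.283, adjusted p = 0.00407). Cyp51 (-0.39, SE 0.387), Sqle (-0.2, SE 0.432) and Hmgcs1 (-0.49, SE 0.305) overlapped between the cell types. With batch as a block, Idi1 (adjusted p = 0.0279) and Srebf2 (adjusted p = 0.0359) were called too. By batch, the median over the 30 genes was 0.21, 0.14 and -1.07, so the shift of this median to lower values lay in batch mbb340. The genes called lower (Mvd, Msmo1, Dhcr7, Acaca, Insig1 and Ebp) were lower in PDPN+ cells in each batch. Of the 14 genes of LXR, efflux and storage, 9 were lower in PDPN+ cells, beside 16.6% of all genes. Among them were Lipa (-4.84, adjusted p = 2.11e-09) and Npc1 (-3.73, adjusted p = 1.15e-08).

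**Figure D5:**
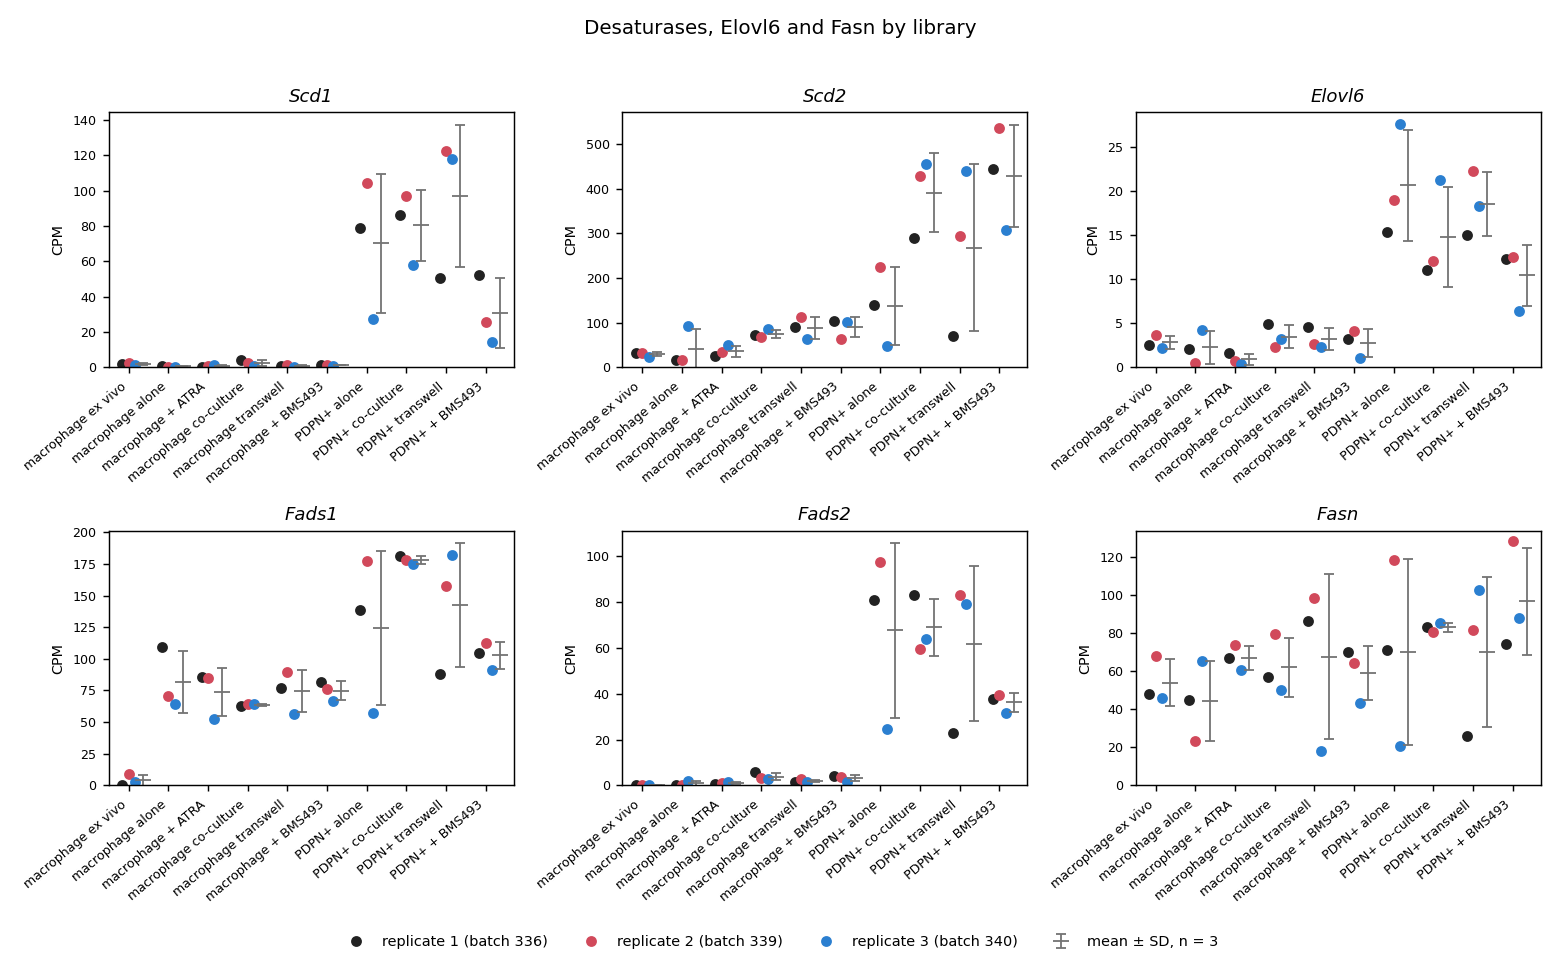
CPM of the 5 desaturation and elongation genes and of Fasn in each library (points, coloured by replicate number) with the mean ± SD of each group (n = 3, grey). Scd1, Fads2 and Elovl6 are low in all macrophage groups and higher in all PDPN+ groups, and the batch mbb340 library of PDPN+ cells cultured alone is the lowest of its group for 5 of the 6 genes.

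In PDPN+ cells no gene of the 30 was called by edgeR in co-culture against culture alone (0% of all 19134 genes called), with 5 at an unadjusted p under 0.05, 1 of them higher. The median was -0.27, and 9 of 30 genes had a positive difference. By batch (mbb336, mbb339 and mbb340), 13, 5 and 15 of 30 genes were higher in co-culture, with medians of -0.05, -0.57 and 0.04. The shift to lower values thus lay mainly in batch mbb339. Stard4 lay at 18.2, 21.9 and 20.1 CPM alone and at 10.7, 7.32 and 6.2 CPM in co-culture (-1.33, SE 0.298, adjusted p = 0.191), and DESeq2 called it. Pmvk lay at 17.5, 14.9 and 34.2 CPM alone and at 8.47, 7.62 and 5.92 CPM in co-culture (-1.63, SE 0.501, adjusted p = 0.426). Scd2 went the other way, from 139.5, 224 and 48.6 CPM to 289, 428 and 455 CPM (1.51, SE 0.627, adjusted p = 0.525). These 3 genes did not overlap between the groups and did not pass the test. The summed level of 8 mesothelial markers was 2566, 2147 and 1630 CPM alone and 1096, 179.1 and 36.3 CPM in co-culture, and its part in these values was not tested. The co-culture libraries 2 and 3 came from few cells (3730 and 2148).

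Transwell culture left PDPN+ cells with no call by edgeR or DESeq2 among the 30 genes (0% of all genes called by edgeR) and none at an unadjusted p under 0.05. The batches went different ways, with medians of -0.5, 0.05 and 0.47 and with 9, 17 and 19 of 30 genes higher. Acly, for example, lay at 83.5, 333 and 474 CPM in transwell culture and at 299, 432 and 89.6 CPM alone. Between co-culture and transwell culture there was no call by either tool (0.00523% of all genes by edgeR), with 5 at an unadjusted p under 0.05, all lower in co-culture. Batch mbb336 went the other way as a set, with 19 of 30 genes higher in co-culture (median 0.47). In batches mbb339 and mbb340, 6 and 4 genes were higher (medians -0.59 and -0.42). With BMS493 against co-culture no gene of the 30 was called by either tool (0.0157% of all genes by edgeR), and 1 had an unadjusted p under 0.05. Scd1 lay at 52.3, 25.6 and 14.1 CPM with BMS493 and at 86.3, 96.8 and 58 CPM in co-culture, without overlap (-1.38, SE 0.561). Acly, which fell in macrophages, lay at 332, 540.3 and 433 CPM with BMS493 and at 498, 608 and 371 CPM in co-culture (-0.17, SE 0.603).

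The response to co-culture was compared between the cell types by an interaction term. None of the 30 genes was called by edgeR (0.986% of all 20987 genes), with 6 at an unadjusted p under 0.05, all with a lower response in PDPN+ cells. The median difference was -0.56, and 3 of 30 genes had a positive one. By batch, the median response over the 30 genes was 0.46, 0.41 and -0.24 in macrophages and -0.05, -0.57 and 0.04 in PDPN+ cells. The PDPN+ median was thus the lower one in batches mbb336 and mbb339 and the higher one in batch mbb340. Stard4 came closest, at -1.69 (SE 0.439, adjusted p = 0.0662, and 0.0443 with batch as a block). For Acly the difference was -1.23 (SE 0.74, adjusted p = 0.584), so the rise in macrophages was not shown to differ from the PDPN+ values. For transwell culture no gene of the 30 was called (0% of all genes), and none had an unadjusted p under 0.05. There too the batches differed, with median responses of 0.57, 0.43 and -0.46 in macrophages and -0.5, 0.05 and 0.47 in PDPN+ cells.

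Across the 10 group means, the sterol enzymes followed their mean profile to different degrees. The mean profile of the 18 enzymes up to cholesterol correlated with Msmo1 and Lss at a Pearson r of 0.96, and with Hmgcs1 and Idi1 at 0.95. Among the other enzymes of the profile it correlated at 0.84 to 0.94 with Fdps, Fdft1, Hsd17b7, Cyp51, Tm7sf2, Sqle and Nsdhl, at 0.72 with Sc5d and Dhcr7, 0.71 with Pmvk, 0.65 with Acat2, 0.62 with Mvd, 0.45 with Mvk and 0.27 with Ebp. Outside it, the values were 0.95 with Stard4, 0.87 with Srebf2, 0.78 with Insig1, 0.49 with Fads1 and 0.03 with Srebf1. They were -0.13 with Acly and Acaca, -0.21 with Fads2, -0.25 with Scd2, -0.36 with Elovl6, -0.38 with Fasn and -0.41 with Scd1. These values describe 10 groups that share cell types and batches, and each of the 18 enzymes is part of the profile. Among 9098 other genes with a mean of at least 10 CPM, the most similar were Mocs2 (0.975), Mpdu1, Gskip, Polr2g and Comtd1 (0.969 each). The citrate carrier Slc25a1 was at rank 7 (0.964).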

How the data were processed

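Each of the 30 libraries has 1 table. Per the file headers, the authors' deposited counts are reads that align uniquely to each gene model, and the authors' deposited RPKM is adjusted by a size factor, and was used here only to compare levels between genes per length. Alignment was to build GRCm38 with GSNAP, per the submitters' processing notes. The annotation, strand setting and aligner version are not given there, so overlapping and antisense genes cannot be told apart, and near copies such as Scd1 and Scd2 share sequence. Identifiers without a symbol (192) held 0.0358% of counts.

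Counts were tested with the quasi-likelihood test of edgeR 4.0.16 in R 4.3.3 with limma 3.58.1, after TMM scaling and the default low count filter by group, with group as the only factor, in 15 comparisons and 2 interaction terms. The macrophage fit held 17774 genes in 18 libraries (common biological coefficient of variation 0.499), the PDPN+ fit 19134 genes in 12 libraries (0.573) and the fit of both cell types 20987 genes (0.551). P values were adjusted by the Benjamini-Hochberg method over all genes tested. CPM use TMM-scaled totals of the 30 libraries and are given as mean ± SD. Ratios within a batch use a pseudocount of 0.5 CPM. No pair of replicates was a copy (lowest chi-square per degree of freedom 49.0). Floors of 3 counts cover counting error only, since reads are not independent molecules. The scripts were tested on simulated counts.

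The labels give each replicate number 1 batch (mbb336, mbb339 or mbb340), so libraries of the same number are paired by label. The main tests, the interaction terms among them, did not use this pairing, and batch as a block was run as an alternative. Within macrophages, the deviations of paired libraries from their group means had a median correlation of 0.306 over 45 pairs (range -0.0957 to 0.76, 33 over 0.1) and within PDPN+ cells one of 0.21 over 18 pairs (range -0.403 to 0.723, 14 over 0.1). For replicate 1 of the co-culture, titles and source names disagree on which library is which cell type, and the titles were used. Adgre1, the F4/80 gene, lay at 2713 CPM in the library titled as macrophage and at 40.1 CPM in the other.

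The genes, lists and alternatives were chosen with earlier results of these data known. Genes named with values are Hmgcs1, Idi1, Sqle, Cyp51, Insig1, Srebf1, Srebf2, Fasn, Scd1 and Scd2, and, in each comparison, up to 4 called genes in each direction with the largest fold. The values of some single genes of the neighbouring pathways are not reported here. Mlxipl with ATRA, Apoe by batch, and genes named because their groups did not overlap were chosen after their values were seen. Alternatives were DESeq2 1.42.0, RLE scaling, no low count filter, the compared libraries alone, batch as a block, and leaving out batch mbb340 or each library.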

Additional observations from a re-analysis of the deposited data

How the results depend on the processing

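Counts of the 30 genes called moved most where few were called. For ATRA minus alone (1 called) there were 2 with DESeq2, without the low count filter, without batch mbb340 and with the replicate block, 0 in a fit of only the 6 libraries compared, and 1 to 2 when 1 library was left out. For co-culture minus alone (1 called) there were 3 with DESeq2, 2 with the replicate block, 5 without batch mbb340, 0 with only the 6 libraries and 0 to 4 when 1 library was left out. For transwell minus alone (0 called) there was 1 with DESeq2, 2 without batch mbb340 and 0 to 1 when 1 library was left out. For BMS493 minus co-culture (3 called) there was 1 with only the 6 libraries and 0 to 3 when 1 library was left out. For PDPN+ minus macrophages (11 called) there were 7 with only the 6 libraries. For PDPN+ co-culture minus alone (0 called) there was 1 with DESeq2. For the co-culture interaction (0 called) there was 1 with the replicate block and 1 without batch mbb340, and 0 to 1 when 1 library was left out. No called gene of the 30 changed its direction under the alternatives run. In the comparisons with ex vivo cells the counts stayed within 1.5 times, and 16 of the 23 calls in culture alone held under all 12 alternatives, and Fads2 under the 11 in which it was tested. Counts over all genes depended more on the libraries, with 124 for co-culture minus alone, 930 without batch mbb340, 690 with DESeq2, 429 with the replicate block, 5 without replicate 2 of the cells cultured alone and 1 with only the 6 libraries. With the replicate block, calls also changed for Mvd, which was gained against ex vivo cells with ATRA (adjusted p = 0.00496), in co-culture (0.00867) and in transwell culture (0.0109), for Pmvk in co-culture (0.0427), for Nsdhl, Acaca and Scd2 in transwell culture (0.0477, 0.0242 and 0.0361) and for Insig1 with BMS493 (0.0138). It changed no other call of the 30 genes beyond those given beside the results. Fads2 had no count ex vivo, so depth allows only a lower bound for its fold there.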
